A study of Mus musculus with 12 samples.

Results

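The peaks nearest to 10 glucocorticoid-responsive genes were followed in ATAC-seq tables of 3 sorted brain populations: Pdk4, Zbtb16, Fkbp5, Tsc22d3, Sgk1, Klf9, Errfi1, Cdkn1a, Nr3c1 and Hif3a. A peak was a member when the deposited table named 1 of these genes as the gene with the nearest annotated transcription start site, which gave 480 of 281974 peaks: 225 of 82577 in Olig2+ nuclei, 118 of 107627 in NeuN+ nuclei and 137 of 91770 in microglia. Pdk4 and Zbtb16 were chosen by the measured values reported here, since their peaks were among the largest differences between genotypes, and are given without p-values. Their calls come from the contrast that chose them and are a description only. The other 8 genes were chosen as known glucocorticoid targets when results of these data were already known, so no count over the 10 genes is independent support for a difference.

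ATAC-seq uses a transposase to insert sequencing adapters into accessible DNA, and the tags in a peak measure how open that stretch was. Forebrains of C57BL/6 mice, aged 4 months, were either wild-type (WT) or SgshKO. Sgsh encodes a lysosomal sulfatase needed to break down heparan sulfate, and how the allele was made is not given in the sources used here. Live microglia were sorted by CD11b and CX3CR1 with low CD45, and lightly fixed nuclei were sorted as NeuN+ (negative for PU.1 and OLIG2) or Olig2+ (negative for PU.1 and NEUN). Each genotype had 2 libraries in each sort, 12 in all. The labels do not say whether these came from separate animals, so the p-values measure the spread between libraries, which may be technical.

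Nr3c1 encodes the glucocorticoid receptor, which waits in the cytoplasm in a chaperone complex, enters the nucleus when it binds corticosterone and acts as a transcription factor. It binds palindromic response elements, most of them away from promoters, where chromatin then often becomes more accessible. Fkbp5 is both a target and a co-chaperone that lowers the receptor's affinity for hormone. In brain, Sgk1, Pdk4, Zbtb16, Tsc22d3, Klf9, Errfi1 and Hif3a are familiar as genes whose transcripts rise after corticosteroid exposure, in glia as well as in neurons.

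Promoters of Sgk1, Pdk4 and Hif3a, over which Olig2+ peaks were called lower, and that of Fkbp5 as the feedback gene are shown first. Each is the 250 bases upstream of a RefSeq start site (GRCm38.p6), written 5′ to 3′ on the gene's strand, in lower case. Capitals mark a full match to the palindromic response element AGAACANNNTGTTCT, searched on both strands, which reads the same on both. RefSeq entries were found for 8 of the 10 genes, all but Zbtb16 and Nr3c1, with 17 start sites.
Sgk1 (an inner start site, plus strand, chr10:21993640-21993889): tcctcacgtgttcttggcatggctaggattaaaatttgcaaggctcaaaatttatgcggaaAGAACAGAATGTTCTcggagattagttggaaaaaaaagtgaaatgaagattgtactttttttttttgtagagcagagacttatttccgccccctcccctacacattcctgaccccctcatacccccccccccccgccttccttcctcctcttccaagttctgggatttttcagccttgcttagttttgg
Sgk1 (most downstream start site, plus strand, chr10:21994416-21994665): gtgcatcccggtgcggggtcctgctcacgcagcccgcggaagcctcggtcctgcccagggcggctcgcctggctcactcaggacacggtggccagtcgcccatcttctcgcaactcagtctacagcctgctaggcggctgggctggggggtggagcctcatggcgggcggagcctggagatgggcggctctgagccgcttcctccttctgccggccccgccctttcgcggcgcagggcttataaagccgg
Pdk4 (minus strand, chr6:5496279-5496528): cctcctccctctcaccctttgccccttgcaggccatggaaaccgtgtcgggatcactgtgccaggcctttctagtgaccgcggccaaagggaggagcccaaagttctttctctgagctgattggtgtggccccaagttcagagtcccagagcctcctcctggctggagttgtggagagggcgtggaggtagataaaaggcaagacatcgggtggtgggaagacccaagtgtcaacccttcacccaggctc
Hif3a (minus strand, chr7:17062428-17062677): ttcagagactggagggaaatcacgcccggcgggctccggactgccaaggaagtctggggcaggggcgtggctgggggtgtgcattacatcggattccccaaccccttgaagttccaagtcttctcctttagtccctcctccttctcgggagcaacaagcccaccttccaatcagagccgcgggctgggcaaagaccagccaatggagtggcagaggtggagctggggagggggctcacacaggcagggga
Fkbp5 (minus strand, chr17:28486150-28486399): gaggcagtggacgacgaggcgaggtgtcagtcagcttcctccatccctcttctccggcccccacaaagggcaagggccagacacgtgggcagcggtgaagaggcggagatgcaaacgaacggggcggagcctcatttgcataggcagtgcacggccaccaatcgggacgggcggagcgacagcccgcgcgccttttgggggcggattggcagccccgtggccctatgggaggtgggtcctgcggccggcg

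The full palindrome was present in 1 of the 17 promoters of these genes, the first Sgk1 sequence, and in 3 of 32851 RefSeq promoters of the same length (0.00913%), where the window searched also ran a short way past each start. That match, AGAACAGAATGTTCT at chr10:21993701-21993715, ended 175 bases before the start site. It lay at the edge of an Olig2+ peak (chr10:21993463-21993702) that had 32.7 and 23.5 normalized tags in the WT libraries and 10.5 and 5.98 in the SgshKO libraries. The shorter core ACANNNTGT, which lies within the palindrome, occurred in 2 of the 17 promoters against 6.85% of all, and the 6-base element AGAACA in 4 of the 17 against 19.0%. A match describes letters only, and these windows do not cover the distal peaks, where most of the differences lay.

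Library totals ran from 10771659 to 19555924 tags, and the median peak of a library held 17 to 39 reads. Values are tags per peak scaled by the authors to 10000000 tags per library, and changes are given as SgshKO minus WT on the scale of log2(value + 1). Changes of low peaks come out too small on it, and the error after ± is the standard error. A peak was called when limma's Benjamini-Hochberg adjusted p over its whole table was under 0.05. It was classed as start-site within 1000 bp of the start site used for its deposited distance, and as distal otherwise. The share of tags in peaks was 67.4% in microglia SgshKO replicate 1 against 48.7% to 55.8% in the other 3 microglia libraries, and 21.2% and 21.5% in NeuN+ SgshKO against 25.9% and 26.7% in NeuN+ WT. In Olig2+ libraries it was 30.9% to 31.8%. The start-site peak of Sgsh itself does not check the genotype, because ATAC-seq does not read the gene product: it had 34.6 and 22.6 tags in NeuN+ WT, 9.07 and 13.3 in NeuN+ SgshKO, and was not called in the other sorts. All 10 oligodendrocyte-lineage markers had a start-site peak in Olig2+ nuclei, all 10 neuronal markers in NeuN+ nuclei and 9 of 10 microglial markers (all but Aif1) in microglia.

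Called peaks of these genes were most frequent in Olig2+ nuclei and nearly all lower there. In Olig2+ nuclei 111 of the 225 peaks (49.3%) were called lower in SgshKO and 3 higher, against 11.7% of all Olig2+ peaks lower and 8.17% higher (19.8% in either direction). In NeuN+ nuclei 30 of 118 (25.4%) were lower and 6 higher, against 19.6% and 10.2% of all peaks (29.8% in either direction). In microglia 6 of 137 (4.38%) were lower and 5 higher, against 2.33% and 5.05% of all peaks (7.37% in either direction). Since the same contrast chose Pdk4 and Zbtb16, these shares are a description. Without those genes the other 8 had 56 of 124 Olig2+ peaks lower, 22 of 88 in NeuN+ nuclei and 4 of 123 in microglia. The median change of the 10 genes' peaks was -0.82 in Olig2+ nuclei where the median of all peaks was -0.07, -0.29 against -0.23 in NeuN+ nuclei, and -0.20 against -0.08 in microglia. For each sort, a smaller share of nuclei open at a site and less accessibility in every nucleus cannot be told apart.

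**Figure D1:**
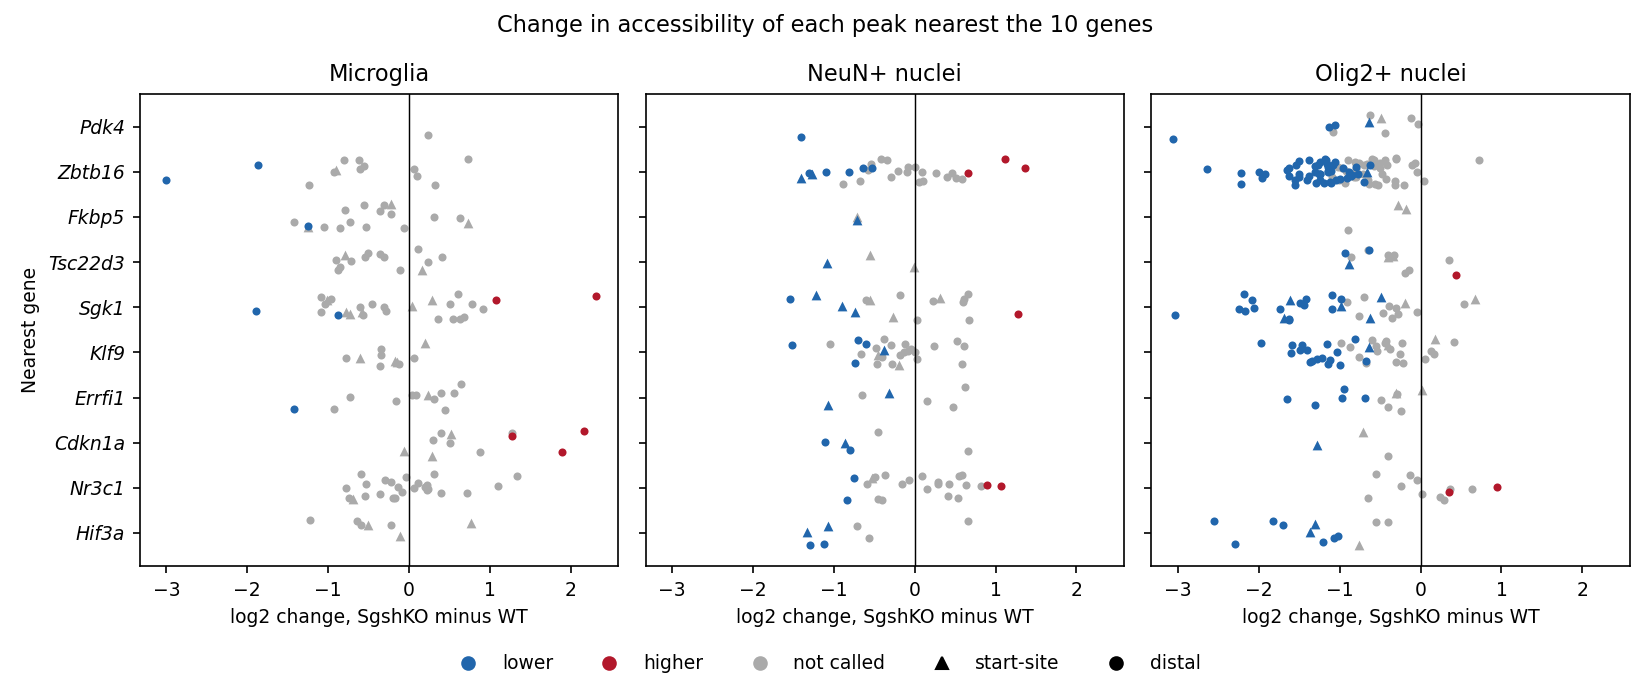
Each point is 1 peak nearest the gene on the vertical axis, and the horizontal axis is its log2 change, SgshKO minus WT, in 1 panel per sort. Blue points were called lower, red points higher and grey points were not called, with triangles for start-site and circles for distal peaks. In Olig2+ nuclei 206 of 225 points lie left of 0, against 75 of 118 in NeuN+ nuclei and 81 of 137 in microglia.

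Start-site and distal peaks were counted apart. In Olig2+ nuclei 12 of 25 start-site peaks (48.0%) and 99 of 200 distal peaks (49.5%) were lower, against 7.56% and 13% of all peaks of those classes. In NeuN+ nuclei 13 of 22 start-site peaks (59.1%) were lower, where 44.9% of all NeuN+ start-site peaks were lower, and 17 of 96 distal peaks (17.7%) where 12.6% were. In microglia no start-site peak of the 24 was called in either direction by limma, with 5 at an unadjusted p under 0.05. Of all microglia start-site peaks 1.2% were called lower. The share of them called higher was not counted, and 5.05% of all microglia peaks of either class were higher. Of the 113 distal peaks of these genes, 6 were lower, against 2.72% of all distal peaks. Over all 137 microglia peaks, 34 had an unadjusted p under 0.05 in limma, and 11 passed the adjustment. Among those 24, edgeR called 3 and DESeq2 1. The NeuN+ start-site count of 13 was 4 to 9 under the 4 other scalings and 3 by DESeq2. With peaks within 500 bp as the start-site class, 7 of 18 Olig2+ start-site peaks were called.

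**Figure D2:**
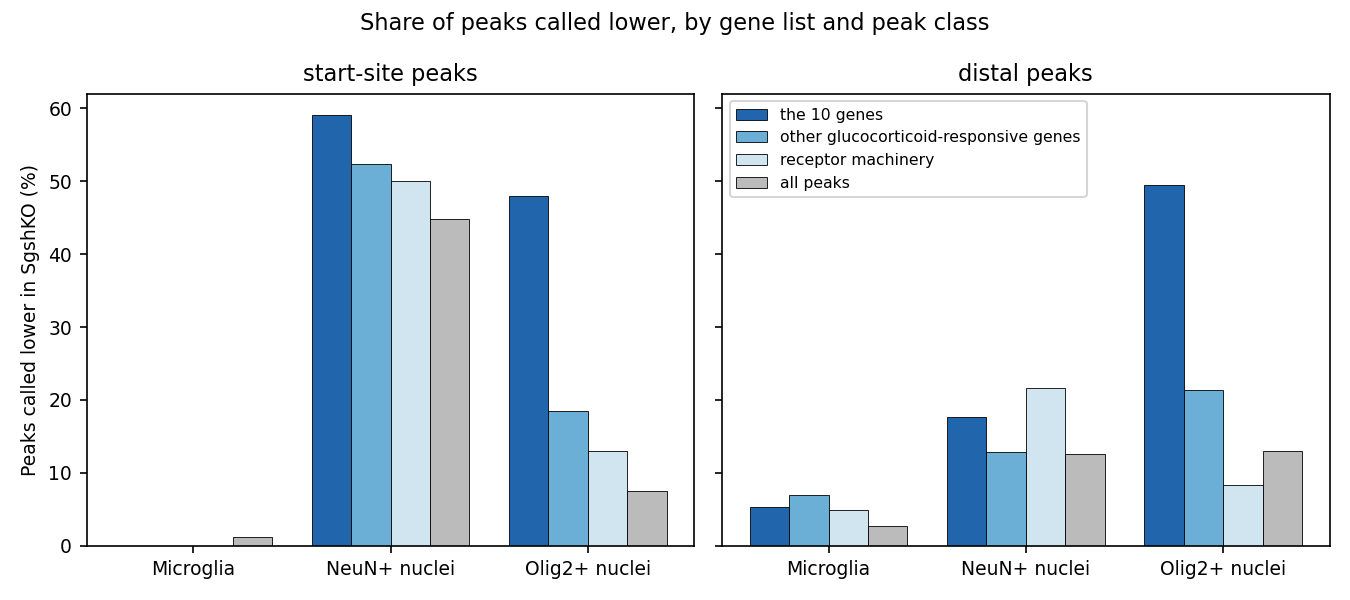
Bars give the percentage of peaks called lower in SgshKO, for start-site peaks on the left and distal peaks on the right, in the 3 sorts. Dark blue is the 10 genes, mid blue 30 other glucocorticoid-responsive genes, pale blue 20 genes of the receptor machinery and grey all peaks of the table. The 10 genes stand at 48.0% and 49.5% in Olig2+ nuclei, where all peaks stand at 7.56% and 13%.

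In Olig2+ nuclei the largest changes were at Pdk4, Sgk1, Zbtb16 and Hif3a. Among the 10 peaks of the whole table with the lowest log2 change, 2 were nearest to these genes (Pdk4 and Sgk1), among the lowest 100 there were 5, and among the lowest 1000 there were 32, from 6 genes. The 4 libraries did not overlap at 178 of the 225 peaks, with both SgshKO libraries below both WT libraries, an arrangement found at 34.9% of all Olig2+ peaks. Of the 178, 79 were at Zbtb16 and 8 at Pdk4. Because those genes were chosen for the size of these same changes, the ranks and the count are a description. Calls were fewer without WT replicate 1 (58 in either direction) or WT replicate 2 (49), and DESeq2 called 36. Over the whole table DESeq2 called 3522 peaks, in place of 16370 by limma. Marker sums differed between genotypes in this sort too. The summed start-site tags of oligodendrocyte-lineage markers came to 3124 and 3091 in WT against 2681 and 2705 in SgshKO. The largest falls were at Cnp (838 and 832 to 622 and 618) and Mbp (544 and 552 to 379 and 411). At Olig1, Pdgfra and Cspg4 both SgshKO libraries were above both WT libraries. Neuronal markers (5 of 10 genes with a peak, none at Rbfox3) summed to 261 and 296 against 346 and 336, most of it at Map2 (219 and 244 against 285 and 277). Microglial markers (2 of 10 genes, none at P2ry12, Tmem119, Cx3cr1 or Csf1r) summed to 240 and 233 against 271 and 284, endothelial markers (1 of 10) to 3.63 and 2.56 against 8.61 and 10.6, and astrocyte markers (3 of 10) to 52.4 and 51.7 against 63.3 and 53.2. The part of these shifts in the results below was not tested.

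For the receptor gene, none of the 12 Olig2+ peaks was called lower and 2 were called higher. The peak 2673 bp upstream of an annotated start (chr18:39489788-39490048) had 328 and 344 normalized tags in WT and 414 and 443 in SgshKO, a change of 0.35 ± 0.07 (SE, limma adjusted p = 0.000676). Both SgshKO libraries were above both WT libraries. A peak 194292 bp downstream (chr18:39292821-39293086), which lies past the 3′ end of Nr3c1 in an intron of another transcript and is tied to Nr3c1 by the nearest start alone, went from 32.7 and 48.6 tags to 79.3 and 75.8, with no overlap and a change of 0.94 ± 0.17 (adjusted p = 0.000296). None of the 12 Nr3c1 peaks was classed as start-site. Summed over its 12 peaks (2953 bp), Nr3c1 had 763 and 773 tags in WT and 905 and 924 in SgshKO.

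Fkbp5, the feedback co-chaperone, had 3 Olig2+ peaks, none called. Its promoter peak (chr17:28486078-28486323), over the sequence given above, had 287 and 277 tags in WT and 243 and 255 in SgshKO, a change of -0.18 ± 0.08 (adjusted p = 0.116, and 0.0435 with cyclic loess). The libraries did not overlap. A weaker peak 2034 bp upstream did not pass the threshold, with a change of -0.90 ± 0.33 (adjusted p = 0.0546).

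Zbtb16, which encodes the zinc finger transcription factor PLZF, had the most peaks of the 10 genes in Olig2+ nuclei, 91, of which 51 were called lower and none higher. Along the 184429 bp of the gene lay 88 of them, and 48 of these were lower. The peak with the most tags among the 4 largest decreases (chr9:48737514-48737845, in an intron 98266 bp from the start) had 213 and 212 tags in WT and 56.6 and 35.2 in SgshKO, a change of -2.22 ± 0.15. A neighbour within the same intron stretch (chr9:48736391-48736615) went from 89.7 and 84.4 to 17.2 and 18.6. Further into the gene, chr9:48723762-48723995 held 25.9 and 33.8 tags in WT and 2.46 and 5.98 in SgshKO (-2.64 ± 0.33). In all 3 the SgshKO libraries were far below the WT libraries. The fourth, chr9:48749236-48749469, went from 49.3 and 34.3 to 10.5 and 8.64 (-2.00 ± 0.25). The start-site peak changed less: chr9:48836342-48836547 had 277 and 263 tags in WT and 164 and 175 in SgshKO, a change of -0.67 ± 0.09. The other 46 called distal peaks changed by -0.63 to -1.96, and 89 of the 91 changes were below 0. Summed over all 91 peaks (24136 bp), the gene had 1957 and 1906 tags in WT and 976 and 939 in SgshKO, so that the genotypes stood far apart and the libraries of a genotype close together.

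**Figure D3:**
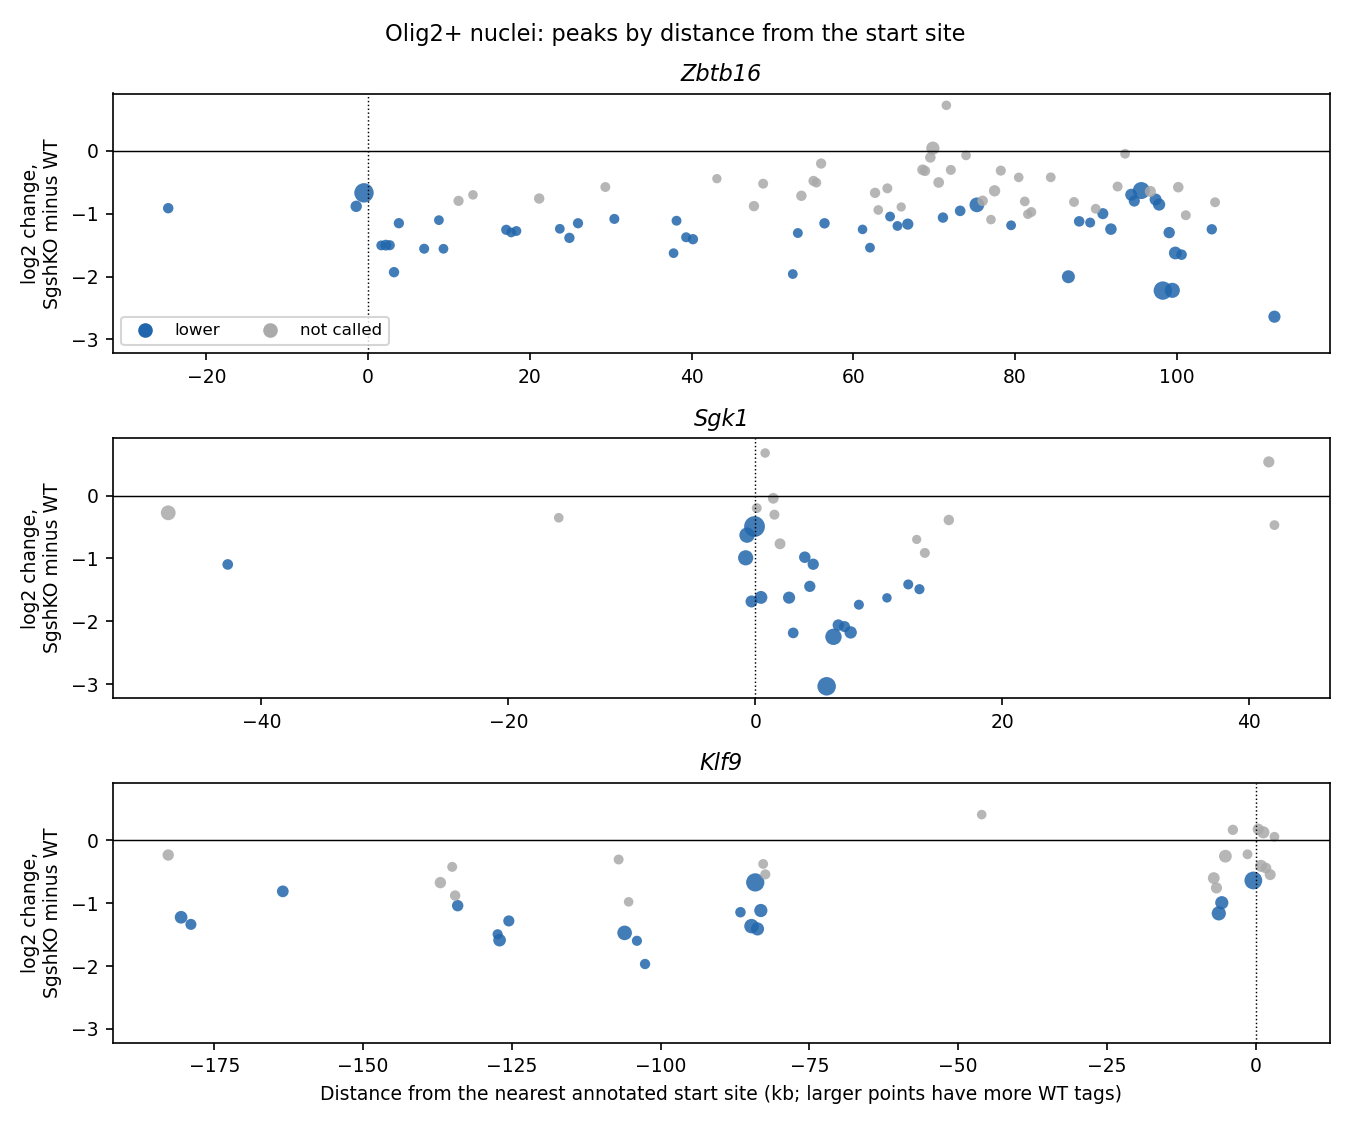
Peaks nearest Zbtb16, Sgk1 and Klf9 in Olig2+ nuclei, with the distance from the start site in kb on the horizontal axis and the log2 change, SgshKO minus WT, on the vertical axis. Blue peaks were called lower (51, 20 and 18) and grey peaks were not called, larger points have more WT tags, and the dotted line marks the start site. Called peaks lie along most of Zbtb16, around and just past Sgk1, and in groups upstream of Klf9.

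Hif3a, a hypoxia-inducible factor subunit whose transcript is induced by glucocorticoids, had 12 Olig2+ peaks, 9 of them called lower, and all 12 changes were below 0. Its leading peak (chr7:17058142-17058511, intronic and 1647 bp upstream of the nearest of several annotated starts) had 529 and 557 tags in WT and 93.5 and 89.1 in SgshKO. The change was -2.56 ± 0.09 (adjusted p = 1.62e-19), the smallest p given here for any peak of the 10 genes. The peak at chr7:17060849-17061170 went from 149 and 138 to 25.8 and 31.2 (-2.29 ± 0.15, adjusted p = 5.32e-12), and that at chr7:17058875-17059152 from 58.6 and 67.0 to 16.0 and 17.9 (-1.83 ± 0.20, adjusted p = 1.2e-07). Between the WT and SgshKO libraries there was a wide gap at each. The peak over the promoter sequence given above (chr7:17062265-17062610) had 36.3 and 29.7 tags in WT and 13.5 and 12.0 in SgshKO, a change of -1.30 ± 0.24 (adjusted p = 0.000342). A second start-site peak, chr7:17056027-17056262, went from 241 and 241 to 89.8 and 95.7 (-1.37 ± 0.10, adjusted p = 8.47e-11). The lower call at chr7:17066488-17066748, a low peak with 13.5 and 16.4 tags in WT, was lost without WT replicate 2 (adjusted p = 0.0672). Peaks nearest other genes within 200000 bp of Hif3a did not share this direction: 4 of 105 were lower and 16 higher, with a median of 0.19.

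Klf9, a zinc finger repressor induced by glucocorticoid and thyroid hormones, had 18 of 38 Olig2+ peaks called lower, 17 of them distal. Its start-site peak (chr19:23140676-23140950) had 173 and 195 tags in WT and 122 and 113 in SgshKO, a change of -0.64 ± 0.11 (adjusted p = 8.79e-05). The 4 largest distal decreases were upstream, from 102622 to 127395 bp before the start. That at chr19:23014049-23014274 went from 36.3 and 36.8 tags to 11.7 and 11.3 (-1.59 ± 0.24, adjusted p = 2.14e-05), with no overlap and very close libraries within each genotype. The other 3 were low, with at most 14.3 tags in any WT library, and changed by -1.97, -1.60 and -1.50. All 3 lost their calls without WT replicate 2 (adjusted p = 0.131, 0.327 and 0.184), 1 of them also without WT replicate 1 and 1 without SgshKO replicate 2 (adjusted p = 0.07 and 0.0824). Upstream clusters between 83168 and 180577 bp away held 15 of the called peaks, some of them within an intron of a neighbouring gene, and the nearest-start rule does not show which gene such a peak acts on.

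Tsc22d3, which encodes the glucocorticoid-induced leucine zipper protein GILZ, had 13 Olig2+ peaks, with 3 lower and 1 higher. An intronic peak (chrX:140565321-140565526) went from 49.3 and 49.1 tags to 25.8 and 24.6, a change of -0.94 ± 0.19 (adjusted p = 0.000961, and 0.0525 by DESeq2). The peak at chrX:140520263-140520573 went from 81.4 and 85.4 to 49.8 and 57.2 (-0.63 ± 0.15, adjusted p = 0.00339), and lost its call without WT replicate 2 (adjusted p = 0.0732). The intronic peak chrX:140570351-140570621 was higher instead, at 65.4 and 71.6 tags in WT and 88.5 and 97.1 in SgshKO (0.43 ± 0.14, adjusted p = 0.027). That call was lost without WT replicate 1 (0.211), WT replicate 2 (0.092) or SgshKO replicate 2 (0.117). The third lower peak, 550 bp from the start (chrX:140543067-140543370), went from 29.1 and 27.1 to 11.7 and 18.6 (-0.88 ± 0.25, adjusted p = 0.0147), and was named after its values were seen. Closer to the start the peak was weak, with 9.34 and 10.7 tags in WT against 7.38 and 7.31, and was not called.

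Sgk1, the serum- and glucocorticoid-regulated kinase, had 20 of 32 Olig2+ peaks called lower, 5 of 7 at start sites and 15 of 25 elsewhere. The largest change sat at the transcription termination site (chr10:22000104-22000781), with 221 and 216 tags in WT and 31.4 and 21.3 in SgshKO. It changed by -3.03 ± 0.16 (adjusted p = 6.97e-15), the 9th lowest change of the 82577 Olig2+ peaks. The next peak downstream, chr10:22000831-22001157, went from 136 and 116 to 21.5 and 30.6 (-2.25 ± 0.17, adjusted p = 9.73e-11), and chr10:22002161-22002611 from 31.6 and 33.2 to 4.30 and 9.31 (-2.18 ± 0.30, adjusted p = 5.19e-06). An intronic peak, chr10:21997630-21997836, held 14.5 and 15.3 tags in WT and 1.84 and 3.32 in SgshKO (-2.18 ± 0.36, adjusted p = 7.82e-05). Each of these 4 kept its call with any single library left out. Over the second Sgk1 sequence given above, the peak chr10:21994491-21994709 had 378 and 352 tags in WT and 243 and 275 in SgshKO, a smaller change of -0.49 ± 0.08 (adjusted p = 4.88e-05). The low peak at the edge of the palindrome changed by -1.68 ± 0.29 (adjusted p = 0.000131).

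Pdk4, the kinase that switches off pyruvate dehydrogenase and so limits glucose oxidation, had 10 Olig2+ peaks, 4 called lower, and all 10 changes were below 0. The peak that led to its choice (chr6:5443286-5443497, intergenic, 52887 bp downstream of the start) had 113 and 106 tags in WT and 16.0 and 9.31 in SgshKO, a change of -3.06 ± 0.21 and the 7th lowest of the table. Its promoter peak (chr6:5496282-5496520), over the sequence given above, had 47.2 and 41.4 tags in WT and 25.8 and 30.6 in SgshKO (-0.64 ± 0.20), with no overlap. The remaining called peaks were low: chr6:5446475-5446685 went from 8.82 and 10.2 to 4.30 and 3.32 tags, and chr6:5589747-5590054 from 16.6 and 15.9 to 4.30 and 12.0. Except for the first, these calls were lost without WT replicate 1 or WT replicate 2, and over all alternatives their changes ranged from -0.41 to -1.70.

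Errfi1, a feedback inhibitor of the EGF receptor, had 11 Olig2+ peaks, 5 of them lower and all 5 distal. The peak 16861 bp past the start (chr4:150871770-150872092) went from 130 and 151 tags to 43.7 and 43.9, a change of -1.65 ± 0.14 (adjusted p = 8.54e-10) in which the SgshKO libraries nearly coincided. At chr4:150869935-150870172 the values were 34.8 and 31.2 against 8.61 and 18.6 (-1.31 ± 0.27, adjusted p = 0.00116, and 0.0507 by DESeq2). The intronic peaks chr4:150859436-150859697 and chr4:150863085-150863285 changed by -0.98 ± 0.27 and -0.94 ± 0.31 (adjusted p = 0.0106 and 0.0334). Neither was called without WT replicate 1 (adjusted p = 0.0586 and 0.113) or WT replicate 2 (0.107 and 0.211), and the second not without SgshKO replicate 2 (0.24). The strong promoter peak at the main Errfi1 start (chr4:150854865-150855131) is named for another gene in this table and is no member. It was called higher, with a change of 0.34, against the direction of these 5 peaks.

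Cdkn1a, which encodes the cell cycle inhibitor p21, had 3 Olig2+ peaks. The peak nearest its start (chr17:29093588-29093803) had 19.7 and 18.9 tags in WT and 12.9 and 9.97 in SgshKO, a change of -0.72 ± 0.28 that was not called (adjusted p = 0.0641). A second start-site peak was the only one called, at -1.28. The intronic peak chr17:29095440-29095652 went from 52.9 and 50.6 to 43.0 and 35.2 and was not called (-0.40 ± 0.18).

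**Figure D4:**
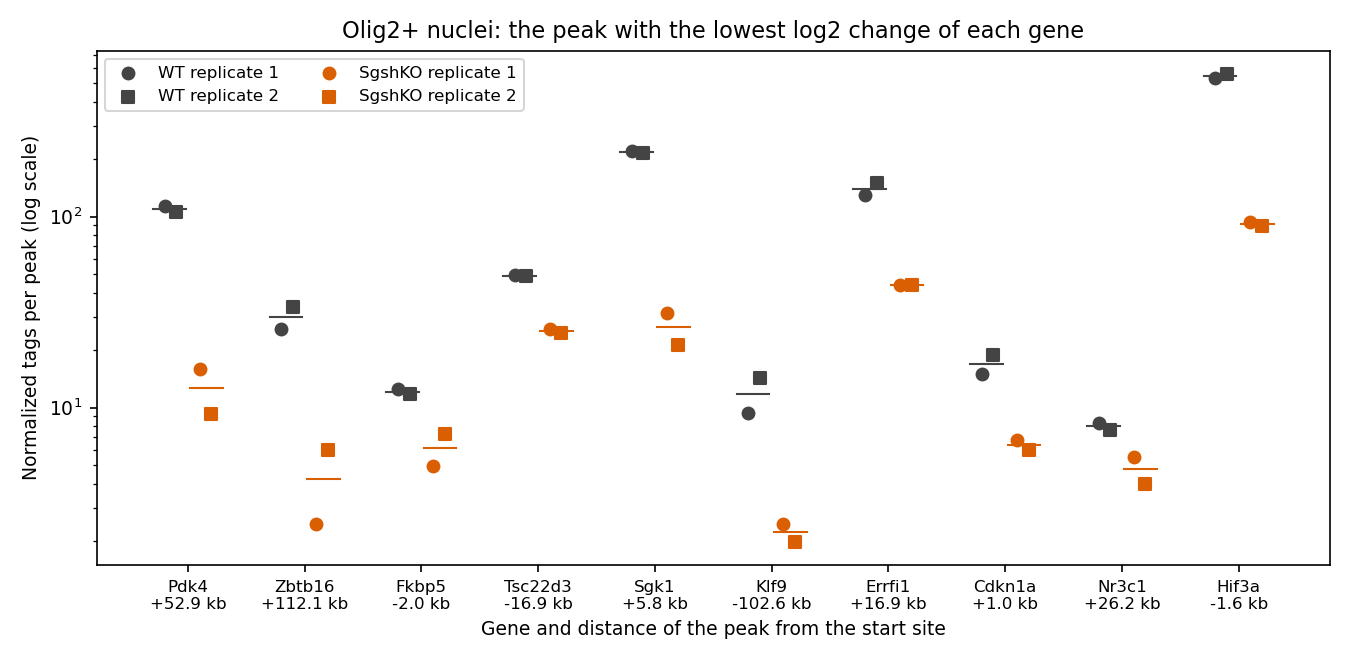
Normalized tags, on a log scale, in the 4 Olig2+ libraries at the peak of each gene with the lowest log2 change, with WT in grey and SgshKO in orange, replicate 1 as circles, replicate 2 as squares and bars at the group means. The horizontal axis names the gene and the distance of the peak from the start site. The direction in each column follows from how the peak was picked, and what the plot shows is the spread: values run from 529 and 557 against 93.5 and 89.1 at Hif3a to low levels at Klf9 and Nr3c1.

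Called changes in NeuN+ nuclei went in both directions, between -1.55 and 1.37. The direction of NeuN+ counts depended on scaling: 30 lower and 6 higher with the deposited totals became 15 and 16 when scaled to tags in peaks, 19 and 13 with median-of-ratios factors, 12 and 9 with cyclic loess and 8 and 5 with quantile normalization. The median of all NeuN+ peaks moved from -0.23 to 0.05, -0.03, -0.05 and -0.08 in turn, and that of the 10 genes from -0.29 to -0.02, -0.09, -0.10 and -0.13. Without SgshKO replicate 1 or SgshKO replicate 2 no peak of the table was called by limma, with 38 and 36 of the 118 at an unadjusted p under 0.05, while edgeR called 20 and 21. Neuronal marker tags came to 1184 and 1096 in WT against 632 and 634 in SgshKO (10 of 10 genes with a start-site peak), and oligodendrocyte-lineage tags (5 of 10, none at Olig2 or Sox10) 200 and 175 against 97.0 and 105. Microglial markers (1 of 10) summed to 54.4 and 48.0 against 34.2 and 32.4. Their part in the changes below was not tested.

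At NeuN+ promoters, Sgk1 kept its call under every scaling. Its peak (chr10:21994489-21994693) had 156 and 163 tags in WT and 62.8 and 73.0 in SgshKO, a change of -1.23 ± 0.12 (adjusted p = 2.79e-06), between -0.69 and -1.33 over the alternatives. The Zbtb16 promoter (chr9:48836224-48836541) had 96.9 and 105 against 31.4 and 44.4 (-1.41 ± 0.17). At both, the genotypes stood well apart. Fkbp5 (chr17:28486101-28486323) went from 136 and 110 to 85.2 and 64.8 (-0.71 ± 0.15, adjusted p = 0.0017), but changed by only -0.18 with quantile normalization (adjusted p = 0.415). The promoter changes of Klf9 (-0.38 ± 0.13, adjusted p = 0.0396) and Errfi1 (-0.32 ± 0.11, adjusted p = 0.0388) turned positive with quantile normalization, at 0.15 and 0.24, and with cyclic loess, at 0.13 and 0.23. Start-site calls were also made at Cdkn1a (-0.87 ± 0.23, adjusted p = 0.00884), Tsc22d3 (-1.08 ± 0.32, adjusted p = 0.0176) and Hif3a (-1.33 ± 0.38, adjusted p = 0.0152), each lost with quantile normalization (adjusted p = 0.0753, 0.0755 and 0.0507). Lower start-site peaks were common in this table, as the 44.9% above shows.

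Away from promoters, NeuN+ peaks of these genes went both ways. The Pdk4 peak that was lowest in Olig2+ nuclei was the gene's only NeuN+ peak (chr6:5443290-5443497): it had 13.6 and 20.3 tags in WT and 5.58 and 5.71 in SgshKO (-1.41 ± 0.31). At Klf9 the peak 5109 bp upstream (chr19:23136012-23136223) went from 51.0 and 45.7 to 18.9 and 14.0, a change of -1.52 ± 0.22 (adjusted p = 7.48e-05) that held under every scaling. Other Klf9 peaks at chr19:23134266-23134493 and chr19:23135399-23135708 changed by -0.60 ± 0.16 and -0.70 ± 0.15 (adjusted p = 0.0092 and 0.00218) and were not called with quantile normalization (0.285 and 0.245). That at chr19:23142393-23142631 changed by -0.73 ± 0.27 (adjusted p = 0.0445, and 0.0975 to 0.223 under the 4 other scalings). Cdkn1a had a strong intronic peak (chr17:29095429-29095643) with 123 and 96.6 tags in WT and 63.5 and 60.3 in SgshKO, a change of -0.81 ± 0.14 (adjusted p = 0.000514, and 0.125 with quantile normalization), and an exonic one at -1.11 (adjusted p = 0.0256, not called under the other scalings).

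Higher calls in NeuN+ nuclei came at low peaks. Zbtb16 had 3 higher against 7 lower, and its intronic peak chr9:48733990-48734221 went up from 10.8 and 9.60 tags to 26.5 and 29.2 (1.37 ± 0.25). A second, chr9:48801350-48801692, went from 7.36 and 9.60 to 23.7 and 15.9 (1.12 ± 0.29). Intronic decreases were seen at chr9:48824646-48824906, from 11.9 and 12.4 to 4.19 and 4.44, and at chr9:48795605-48795852, from 12.5 and 17.5 to 4.89 and 8.25. Sgk1 had a higher peak 76495 bp upstream, from 3.40 and 3.95 tags to 11.9 and 8.89 (1.27 ± 0.35, adjusted p = 0.0119), and a lower exonic one from 5.66 and 7.91 to 1.40 and 1.90 (-1.55 ± 0.41, adjusted p = 0.00908). Hif3a had lower intronic peaks at -1.30 (adjusted p = 0.0253) and -1.13 (adjusted p = 0.0338), both at low tags in WT.

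In NeuN+ nuclei the 2 called peaks a few kb upstream of an inner Nr3c1 start, within the gene, were lower. The 2 called at the ends of the gene were higher. Upstream of an Nr3c1 start, the peak chr18:39489633-39490017 had 77.0 and 69.5 tags in WT and 41.9 and 44.4 in SgshKO, a change of -0.75 ± 0.16 (adjusted p = 0.00186). Its effect differed from that in Olig2+ nuclei by -1.10 ± 0.20 (limma adjusted p of the difference 0.000529). The neighbour chr18:39490689-39490895 went from 71.9 and 71.7 to 38.4 and 41.3 (-0.84 ± 0.16, adjusted p = 0.000863). Both kept their direction and lost their calls with quantile normalization (adjusted p = 0.112 and 0.061). A low peak at the 3′ end of the gene was higher by 1.07 ± 0.31 (adjusted p = 0.0155). So was one over its 5′ end, 32182 bp upstream of the inner start, by 0.89 ± 0.32 (adjusted p = 0.0449). This peak counted as distal because its deposited distance was taken from the inner start.

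In microglia few peaks of these genes were called, and 1 Zbtb16 peak dominated. That intronic peak (chr9:48723763-48723964), at the same place as one described in Olig2+ nuclei, had 57.9 and 55.9 tags in WT and 6.93 and 5.57 in SgshKO, a change of -3.00 ± 0.43. It had the 35th lowest change of 91770, and the genotypes stood far apart. A weak intronic Zbtb16 peak (chr9:48826227-48826542) went from 13.8 and 8.47 to 0.87 and 4.64. The Zbtb16 promoter had 104 and 85.6 tags against 54.5 and 45.5, with no overlap. Leaving out WT replicate 1 or WT replicate 2 ended 8 and 9 of the 9 calls at the other genes (adjusted p from 0.0867 to 0.641 and from 0.251 to 0.752), whereas without SgshKO replicate 1 or SgshKO replicate 2 the count of called peaks was 32 and 29 in place of 11. Scaling to the tags in peaks gave 22 lower and 6 higher, and quantile normalization 11 and 6. Over the whole table these scalings called 14522 and 10484 peaks in either direction, in place of 6765. Blood myeloid markers (2 of 10 genes with a start-site peak, none at Ccr2 or Ly6c2) summed to 167 and 128 tags in WT and 203 and 201 in SgshKO, and border macrophage markers (3 of 6, none at Cd163 or Lyve1) to 52.7 and 40.7 against 87.4 and 69.6. Microglial markers summed to 2422 and 2093 at start sites in WT against 2709 and 2101, while over all their peaks 24 of 200 (12%) were called lower, with a median of -0.56. At Cx3cr1, which was used in the sort, start-site tags went from 369 and 310 to 196 and 188. The part of these markers in the microglia results was not tested.

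Higher microglial calls were made only at Cdkn1a and Sgk1. Cdkn1a had 3 of 11 peaks higher and none lower. The intronic peak chr17:29097221-29097531 went from 6.05 and 3.39 tags to 43.3 and 13 (2.16 ± 0.53, adjusted p = 0.00762), that in the 3′ UTR (chr17:29099629-29100213) from 7.78 and 7.62 to 50.2 and 19.5 (1.90 ± 0.48, adjusted p = 0.01), and the intergenic chr17:29113974-29114256 from 34.6 and 28.0 to 107 and 54.8 (1.28 ± 0.37, adjusted p = 0.0259). In each, SgshKO replicate 1 was far above SgshKO replicate 2, and without it the third was not called (adjusted p = 0.1). At Sgk1 the intronic peak chr10:21976330-21976720 went from 114 and 85.6 to 252 and 174 (1.07 ± 0.29, adjusted p = 0.0188), and chr10:21905712-21905918 from 3.46 and 2.54 to 17.3 and 20.4 (2.32 ± 0.51, adjusted p = 0.00318).

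Lower calls were spread over 4 genes. Sgk1 had a peak at its termination site (chr10:22000607-22000814) with 236 and 239 tags in WT and 119 and 139 in SgshKO (-0.88 ± 0.28, adjusted p = 0.0437), and a weak 3′ UTR peak from 12.1 and 16.9 to 2.60 and 3.71 (-1.90 ± 0.52, adjusted p = 0.0193). Errfi1 had 1 at chr4:150869714-150870100, from 87.3 and 114 to 43.3 and 30.6 (-1.43 ± 0.34, adjusted p = 0.00656), which overlaps the Olig2+ peak that was also lower there. Fkbp5 had an intronic peak (chr17:28428520-28428859) from 55.3 and 44.1 to 19.9 and 20.4 (-1.25 ± 0.39, adjusted p = 0.0405). No microglial peak of Pdk4, Tsc22d3, Klf9, Nr3c1 or Hif3a was called by limma with the deposited totals. The intronic Hif3a peak chr7:17058436-17058638 had 284 and 233 tags in WT and 201 and 135 in SgshKO, a change of -0.64 ± 0.28 (adjusted p = 0.162). It passed the threshold under the 4 other scalings (adjusted p from 0.00266 to 0.0485).

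At the Fkbp5 promoter the genotype effect in microglia differed from that in both other sorts. In microglia (chr17:28486200-28486436) it had 258 and 256 tags in WT and 458 and 400 in SgshKO, so that both SgshKO libraries were higher. The change of 0.74 ± 0.26 missed the threshold (adjusted p = 0.0703), and passed it with tags-in-peaks scaling (0.0424), median-of-ratios factors (0.0096), edgeR (0.00728) and DESeq2 (0.0185). It did not pass with quantile normalization, cyclic loess, or without WT replicate 1, WT replicate 2 or SgshKO replicate 1, and over the alternatives the change ran from 0.25 to 0.83. With the deposited totals the effect was above that in NeuN+ nuclei by 1.45 ± 0.21 and above that in Olig2+ nuclei by 0.91 ± 0.21 (limma adjusted p = 4.83e-06 and 0.0025). The microglial start-site peaks of Cdkn1a (132 and 102 against 198 and 139), Tsc22d3 (156 and 118 against 186 and 124), Klf9 (152 and 117 against 152 and 154) and Errfi1 (128 and 158 against 163 and 172) were not called.

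**Figure D5:**
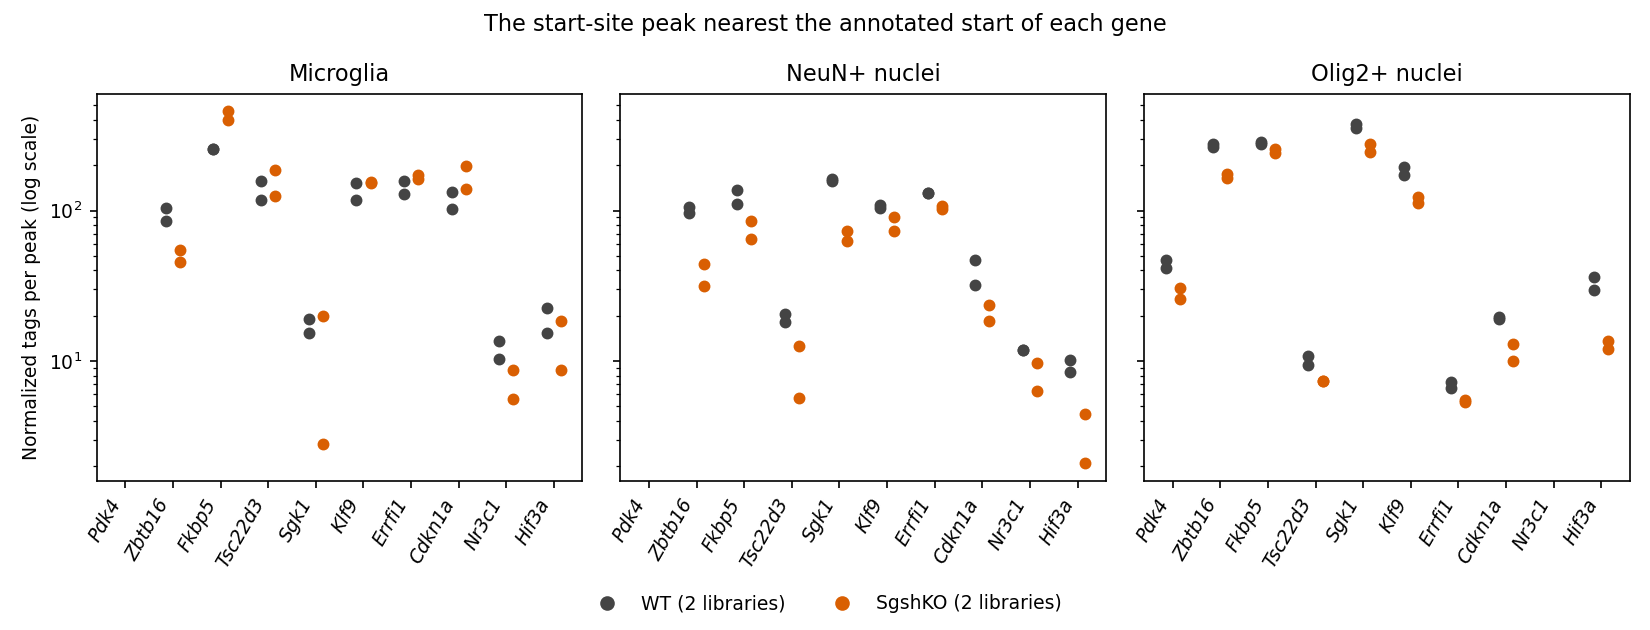
Normalized tags, on a log scale, at the start-site peak nearest the annotated start of each gene in the 3 sorts, with WT libraries in grey and SgshKO libraries in orange. Pdk4 had no such peak in microglia or NeuN+ nuclei and Nr3c1 none in Olig2+ nuclei. At Fkbp5 the SgshKO points lie above WT in microglia (458 and 400 against 258 and 256) and below it in NeuN+ nuclei (85.2 and 64.8 against 136 and 110).

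Whether the genotype effect differed between sorts was tested on peaks present in all 3 tables and paired when each covered 50% or more of the other, which 24 of the 10 genes' peaks had among 16761. The effect differed between microglia and NeuN+ nuclei at 8 of the 24, where 42.5% of all matched peaks differed, between microglia and Olig2+ nuclei at 8 where 21.6% did, and between NeuN+ and Olig2+ nuclei at 5 where 31.7% did. The leading Hif3a peak changed by -2.56 in Olig2+ nuclei, -0.72 in NeuN+ nuclei and -0.59 in microglia. Its differences from Olig2+ nuclei were 1.97 ± 0.30 for microglia and 1.84 ± 0.30 for NeuN+ nuclei (limma adjusted p = 3.48e-05 and 0.000186). At the Hif3a start-site peak near chr7:17056015 the change was -1.37 in Olig2+ nuclei, -1.07 in NeuN+ nuclei and 0.77 in microglia. The Zbtb16 peak near chr9:48723763 changed by -2.64, -0.64 and -3.00 in the same order. The Nr3c1 peak upstream of an inner start changed by 0.35, -0.75 and 0.20, and the Fkbp5 promoter by -0.18, -0.71 and 0.74. Of the 111 peaks lower in Olig2+ nuclei, 29 overlapped a microglial peak, with 21 below 0 and 5 called lower there. A NeuN+ peak was overlapped by 31, with 26 below 0 and 12 called lower. The others had no overlapping peak in the table compared. Where 2 peaks overlapped, the first listed was taken. Of all peaks, 55.3% in microglia and 62.6% in NeuN+ nuclei were below 0, and 2.33% and 19.6% were called lower. Other genes' peaks lower in Olig2+ nuclei were not followed so, and these counts are a description.

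Other glucocorticoid-responsive genes, a list of 30 that includes Per1, Ddit4 and Plin4, were mostly lower where called in Olig2+ nuclei. The list does not separate induced from repressed genes. Of their 288 Olig2+ peaks, 60 (20.8%) were lower and 21 (7.29%) higher, against 11.7% and 8.17% of all peaks, with a median of -0.21. Plin4, a lipid droplet protein, had 18 peaks lower and none higher, with a promoter peak at 211 and 211 tags in WT and 46.7 and 40.6 in SgshKO (-2.25 ± 0.13, adjusted p = 1.08e-13). Ddit4, an inhibitor of mTORC1 signalling, had 9 lower and Fam107a 6. Gadd45b had 6 higher and Ccnd1 3, so the list did not move as one. In NeuN+ nuclei the list had 44 lower (20.6%, against 19.6% of all peaks) and 14 higher of 214. In microglia it had 24 lower (5.85%, against 2.33%) and 11 higher of 410. Of those 24, 11 were nearest Rhob, 5 nearest Mertk and 4 nearest Per1, so the share rests on few genes.

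The receptor machinery, 20 genes for chaperones, hormone-converting enzymes and coregulators of the receptor, had as many higher as lower calls in Olig2+ nuclei. Of 225 peaks 21 were lower (9.33%, against 11.7% of all peaks) and 21 higher, with a median of 0.02. Hsd11b1, which regenerates active corticosterone, had 2 peaks lower and none higher. In NeuN+ nuclei 53 of 184 were lower (28.8%, against 19.6%) and 7 higher, and in microglia 8 of 214 were lower (3.74%, against 2.33%) and 6 higher.

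Peaks of other genes within 200000 bp of the 10 genes gave the local setting in Olig2+ nuclei, where 11.7% of all peaks were lower. Around Zbtb16, 9 of 24 such peaks were lower and 1 higher, with a median of -0.77. Around Fkbp5, 16 of 43 were lower (median -0.47), although none of the 3 Fkbp5 peaks was called. Around Cdkn1a, 7 of 27 were lower and 2 higher, and around Pdk4 2 of 9 were lower. Errfi1 had 1 of 17 lower and 5 higher around it, Klf9 1 of 10 lower and 2 higher, and Sgk1 1 of 9 lower. The single peak near Tsc22d3 was not called, Nr3c1 had no such peak, and the values around Hif3a are given above.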

How the data were processed

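ATAC-seq libraries of 3 sorts and 2 genotypes were compared from 3 deposited peak tables, 1 per sort, each with 4 libraries (12 tag columns matched to samples, 0 unmatched). The submitters' processing notes name Bowtie2, HOMER and the build mm10, with no settings. The deposited signal is tags per peak scaled to 10000000 tags per library, per the file headers, and the deposited Peak Score was not used in a test. Whole reads were recovered for 100% of values (tolerance 0.01 reads) and used for the count tests.

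Each table was fitted whole with limma 3.58.1 (R 4.3.3) on log2(tags + 1), SgshKO against WT, with Benjamini-Hochberg adjustment over all its peaks and a threshold of 0.05. Sorts were compared by an interaction on matched peaks. The peaks given with values were the start-site peak nearest the start, up to 4 called distal peaks with the largest change per gene and sort, and otherwise the distal peak with the smallest p. Peaks named beyond that rule (the palindrome-edge Sgk1 peak, the Hif3a peak at chr7:17056027, the Tsc22d3 peak at chrX:140543067 and the second Cdkn1a start-site peak) were chosen after their values were seen. Alternatives were pseudocounts of 0.5 and 5, a filter on the lowest 25% of peaks, scaling to tags in peaks, median-of-ratios, quantile normalization, edgeR 4.0.16, DESeq2 1.42.0, a replicate block, each library left out and a threshold of 0.01. Cyclic loess and edgeR with each library left out were chosen after seeing the data. Of the fits, the limma fit within each table was run on simulated counts, with results not given here. The 10 genes, the lists of 30 glucocorticoid-responsive and 20 receptor machinery genes and the 7 marker lists were chosen with earlier results of these data known. Sequences beneath the distal peaks were not analysed here.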

Additional observations from a re-analysis of the deposited data

Results flagged for a closer look

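The genotype effect (SgshKO minus WT, log2) differed between sorts at the following matched peaks by limma's interaction test, with Benjamini-Hochberg adjustment over 16761 matched peaks. Zbtb16 values carry no p because its peaks were chosen on the genotype contrast, and their place in this list is a description.

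Between microglia and NeuN+ nuclei, the effect in microglia was higher at the promoters of Fkbp5 by 1.45 (adjusted p = 4.83e-06), Sgk1 by 1.51 (8.4e-07) and Cdkn1a by 1.38 (0.003). It was also higher at the Cdkn1a intronic peak by 1.10 (0.000875) and upstream of an inner Nr3c1 start by 0.95 (0.000536). At the Hif3a start-site peak near chr7:17056015 it was higher by 1.84 (4.5e-06). At Zbtb16 the differences were -2.37 near chr9:48723763 and -0.93 near chr9:48740253, with the lower effect in microglia.

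Between microglia and Olig2+ nuclei, the effect in microglia was higher at the promoters of Fkbp5 by 0.91 (adjusted p = 0.0025), Sgk1 by 0.78 (0.0046) and Cdkn1a by 1.23 (0.0153), and at the Cdkn1a intronic peak by 0.69 (0.0482). The Hif3a peaks near chr7:17056015 and chr7:17058166 differed by 2.14 (3.26e-06) and 1.97 (3.48e-05), Tsc22d3 near its start by 1.05 (0.0437), and Zbtb16 near chr9:48817482 by 1.60.

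Between NeuN+ and Olig2+ nuclei, the effect in NeuN+ nuclei was lower at the Sgk1 promoter by -0.73 (adjusted p = 0.00579) and at the Klf9 peak near chr19:23136006 by -1.26 (0.0139). It was also lower upstream of an inner Nr3c1 start, by -1.10 (0.000529). It was higher at the Hif3a peak near chr7:17058166 by 1.84 (0.000186) and at Zbtb16 near chr9:48723763 by 2.00.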

How the results depend on the processing

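With 2 libraries per genotype, leaving 1 out leaves a lone library that is assumed to vary like the other genotype's. Of 33 named Olig2+ calls, those at Pdk4 and Zbtb16 included, 30 held under the 4 other scalings and 22 with each library left out. Of 27 in NeuN+ nuclei, 10 and 0 did (no peak of that table was called without either SgshKO library), and of 11 in microglia, 9 and 1. The cause of the shifts below was not tested, except that leaving out libraries or low peaks reduces what is tested. Counts over all peaks moved too, from 6765 in microglia to 14522 with tags-in-peaks scaling and 4923 with DESeq2. In NeuN+ nuclei they went from 32105 to 16701 with quantile normalization and 4900 with DESeq2. In Olig2+ nuclei they went from 16370 to 13346 without the lowest 25% of peaks, 3522 with DESeq2 and 7428 at 0.01.

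The microglial count of 11 called peaks was 28 with tags-in-peaks scaling, 17 with median-of-ratios, 17 with quantile normalization, 18 with cyclic loess, 22 with edgeR, 7 with DESeq2 and 4 at 0.01. It was 1 to 32 with 1 library left out (6 to 39 by edgeR). The microglial start-site count of 0 was 6, 3, 2, 2, 3 and 1 under the same 6 fits, 0 to 5 with 1 library left out and 0 to 8 by edgeR so.

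The NeuN+ count of 36 was 13 with quantile normalization, 21 with cyclic loess, 5 with DESeq2 and 17 at 0.01, and 0 to 12 with 1 library left out (16, 15, 20 and 21 by edgeR without WT 1, WT 2, SgshKO 1 and SgshKO 2). The NeuN+ start-site count of 13 was 7 with tags-in-peaks scaling, 4 with quantile normalization, 7 with cyclic loess, 3 with DESeq2 and 6 at 0.01, and 0 to 5 with 1 library left out (5 to 8 by edgeR).

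The Olig2+ count of 114 was 73 without the lowest 25% of peaks, 36 with DESeq2 and 69 at 0.01, and 49 to 115 with 1 library left out (83, 79, 72 and 69 by edgeR in the same order). Its start-site count of 12 of 25 was 7 of 18 within 500 bp. The 8 matched peaks differing between microglia and Olig2+ nuclei were 5 with tags-in-peaks scaling and 4 to 9 with 1 library left out.

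The labels do not say whether libraries with the same replicate number were paired. Over all peaks, the differences between libraries 1 and 2 of WT and of SgshKO correlated at 0.042, 0.0036 and 0.00069 in microglia, NeuN+ and Olig2+ nuclei. Such a correlation does not register a shift common to all peaks, so it does not settle the pairing. With a replicate block the counts of calls were 25, 40 and 116, and the start-site counts 5, 13 and 13. Over all microglia peaks the block gave 14489 calls in place of 6765.

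Signs changed at weak differences. In microglia, the Tsc22d3 start-site peak (0.16) was -0.042 with tags-in-peaks scaling, -0.087 with quantile normalization, -0.066 with cyclic loess, and -0.12 to 0.45 with 1 library left out, where leaving out WT replicate 2 gave -0.039. Klf9 (0.20) was -0.0067, -0.060 and -0.029 under those 3 scalings, and Errfi1 (0.23) was -0.048 and -0.014 with quantile normalization and cyclic loess. Sgk1 at chr10:21882178 (-1.02) was -2.25 to 0.21 with 1 library left out, the latter without SgshKO replicate 2, and Hif3a (-0.51) was 0.0030 without SgshKO replicate 1. In NeuN+ nuclei, with quantile normalization and cyclic loess, Klf9 was 0.15 and 0.13 and Errfi1 0.24 and 0.23.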
